A study of Mus musculus with 15 samples.

Results

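The genes described here are 40 interferon-stimulated genes and regulators of the interferon response, taken by symbol from a fixed list of type I and type II interferon targets, and all 40 were found among the 21669 genes with a symbol. They were chosen by gene name, with the differences between replicates already known from earlier results of these data, so the comparison of replicate numbers is not independent of that choice. RNA-seq was performed on female C57BL/6J mice, 6 to 9 weeks of age per the methods of the study, in 5 groups that are all wild-type. Naive B cells (nB) were CD43- splenic B cells taken without culture. Activated B cells (actB, sorted as B220+GL7+CD138-) and plasmablasts (Pb, sorted as CD138+) came from CD43- B cells cultured ex vivo for 3 days with LPS, Il2, and Il5, together with either DMSO as the vehicle or 2 μM GSK343, an inhibitor of the histone H3 lysine methyltransferase EZH2. For Pb with GSK343 the labels give Il6 where the other cultures have Il5, so that in Pb the drug and this cytokine cannot be told apart. The study asked what inhibition of EZH2 does to gene expression as B cells differentiate, and the question put here is how the interferon-stimulated genes vary across cell stage, drug, and replicate number.

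Type I interferons bind the receptor made of IFNAR1 and IFNAR2, and through JAK1 and TYK2 they activate a complex that includes STAT2 and IRF9 and binds the interferon-stimulated response element (ISRE) at promoters. Type II interferon (IFN-γ) binds IFNGR1 and IFNGR2 and acts mainly at the gamma-activated sequence (GAS). The products of the induced genes degrade viral RNA, block viral translation and assembly, sense nucleic acids, or feed back on the pathway. B cells respond to interferons, and stimulation through Toll-like receptors such as the LPS receptor TLR4 can induce some of the same genes.

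Between 19421830 and 26307413 reads were counted per library, so that 3 reads, the number that a count of 0 allows, correspond to 0.114 to 0.154 RPM, the unit of the deposited table in which each library sums to 1000000. Levels are given as RPKM (RPM per kilobase of gene length). The columns of nB replicates 1 and 2 held the same library (chi-square per degree of freedom 0.00947, against at least 3.57 between other libraries of a group) and were merged, so that nB has n = 2 and each cultured group n = 3. No source states that the replicates of a group are separate mice, so p-values measure the spread between these libraries. In the 12 cultured libraries, the 6 B lineage markers summed to 2394 to 5017 RPM and the 6 T cell markers to 0.329 to 1.70 RPM, against 58.0 to 61.8 RPM in nB. The nB libraries also held transcripts of myeloid cells: *Csf1r*, the receptor that defines macrophages, was at 9.16 and 16.8 RPKM, and *Siglech*, a marker of plasmacytoid dendritic cells, at 3.59 and 10.3 RPKM, in the merged library and in replicate 3. Both were at most 0.0547 RPKM in every cultured library. The myeloid markers *Mpeg1* and *Itgam* reached 84.9 and 12.8 RPKM in cultured libraries, above their nB levels. In these bulk samples, fewer cells of a type and less RNA per cell cannot be told apart.

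The promoters of the list were searched for both elements. RefSeq promoter windows (GRCm38.p6) were matched for 31 of the 40 genes and searched over the 250 bases before each start, on both strands, for GAAANNGAAA (the core of the ISRE) and TTCNNNGAA (the core of the GAS, which is its own reverse complement). The ISRE core was found in 15 of the 31 genes (48.4%), against 936 of all 27025 genes with a window (3.46%). The GAS core was found in 8 of 31 (25.8%), against 8.13% of all genes. Both were in the windows of 4 genes, and in 1 of these the matches overlapped. A match is a description of these letters and not a tested binding site. The 16 genes without an ISRE core were *Oasl1*, *Oasl2*, *Ifi44*, *Ifi35*, *Samd9l*, *Irf1*, *Irf7*, *Irf9*, *Ifih1*, *Ifit2*, *Isg20*, *Ddx58*, *Cmpk2*, *Eif2ak2*, *Xaf1*, and *Lgals3bp*. The 9 genes with no window were *Rtp4*, *Mx1*, *Mx2*, *Oas2*, *Usp18*, *Dhx58*, *Zbp1*, *Parp9*, and *Parp14*. The stretches below are from some of the 15 genes with an ISRE core. Each is 60 bases in the direction of transcription, 5′ to 3′, with ISRE cores in capitals (a core on the other strand is capitalised where it lies and begins with TTTC).
Isg15, encoding a ubiquitin-like modifier (chr4:156200852-156200911, minus strand): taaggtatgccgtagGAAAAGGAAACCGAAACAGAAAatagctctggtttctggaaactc
Oas3, encoding an RNA-activated oligoadenylate synthetase (chr5:120777690-120777749, minus strand): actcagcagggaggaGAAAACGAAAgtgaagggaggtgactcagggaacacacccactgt
Oas1a, of the same family (chr5:120907526-120907585, minus strand): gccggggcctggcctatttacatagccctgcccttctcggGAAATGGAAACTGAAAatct
Pydc3, encoding a pyrin domain protein (chr1:173673592-173673651, plus strand): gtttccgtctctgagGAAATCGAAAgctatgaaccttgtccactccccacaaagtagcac
Stat2, encoding the signal transducer itself (chr10:128270261-128270320, plus strand): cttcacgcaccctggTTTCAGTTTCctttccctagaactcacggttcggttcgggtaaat
Gbp2, encoding a guanylate-binding protein (chr3:142620589-142620648, plus strand): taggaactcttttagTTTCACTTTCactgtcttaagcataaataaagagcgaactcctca
Igtp, encoding an immunity-related GTPase (chr11:58199496-58199555, plus strand): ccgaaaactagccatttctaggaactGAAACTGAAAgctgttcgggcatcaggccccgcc
Ifit1, encoding a protein that binds viral RNA caps (chr19:34640770-34640829, plus strand): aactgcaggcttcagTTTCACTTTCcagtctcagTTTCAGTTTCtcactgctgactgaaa
In *Isg15* the overlapping cores form a run of 3 matches beginning 78 bases before the start. In *Oas1a* the first core lies 20 bases before the start, and in *Stat2* it lies 222 bases before it.

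The 40 genes did not move as 1 block across cell stages. By group mean of log2(RPKM + 0.25), 14 were highest in actB with DMSO, 13 in nB, 7 in Pb with DMSO, and 3 each in actB and Pb with GSK343. The lowest group was nB for 18 genes and Pb with GSK343 for 17. The shares of all genes that were highest or lowest in each group are not given, so these counts cannot be set against them. All 40 passed the filter on low values, which asked for an RPKM of 1 or more in 3 or more of the 15 columns, and 11299 genes were tested with limma and called at an adjusted p under 0.05.

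**Figure D1:**
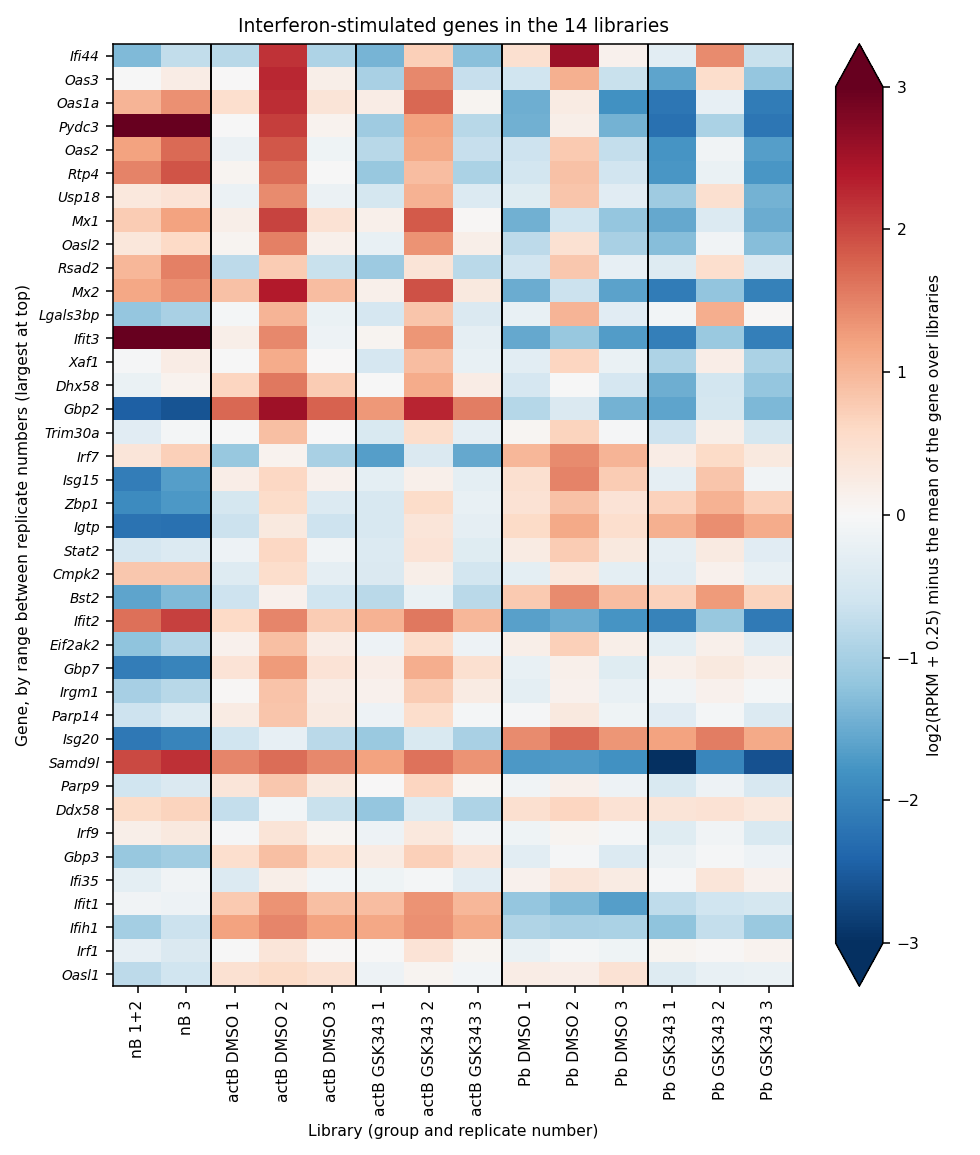
Heat map of the 40 genes (rows) in the 14 libraries (columns), coloured by log2(RPKM + 0.25) minus the gene's mean over libraries, from blue (lower) to red (higher), with black lines between groups. In each cultured group the column of replicate 2 is redder than those of replicates 1 and 3 for most rows, and *Pydc3* and *Ifit3* stand out in nB.

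In actB with DMSO against nB, 18 of the 40 genes were higher (40.9% of all genes tested were) and 7 were lower (36.3% of all). The median log2 fold change of the list was 0.54, against 0.053 over all genes. All 5 interferon-inducible GTPases rose, as did 4 of the 5 nucleic acid sensors. The other groups were mixed.

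*Gbp2* (chr3:142283566-142300972 in mm9), whose product coats pathogen vacuoles, was the largest rise. It read 15.1 and 13.7 RPKM in the nB libraries and 274, 486, and 283 RPKM in actB with DMSO. Its log2 fold change was 4.52 ± 0.38 (SE; adjusted p = 2.35e-07). The groups did not overlap, and replicate 2 was the highest of the actB libraries. *Gbp7*, of the same family, went from 6.92 ± 0.306 RPKM (SD, n = 2) to 49.0 ± 18.1 (n = 3), a log2 fold change of 2.72 (adjusted p = 1.3e-06). *Isg15*, whose ISRE cores are printed above, rose from 7.32 and 9.82 RPKM to 36.3, 48.4, and 34.2 (log2 fold change 2.18, adjusted p = 6.32e-05). *Ifih1*, which encodes the double-stranded RNA sensor MDA5, rose from 1.72 ± 0.361 to 8.35 ± 0.943 RPKM (log2 fold change 2.13, adjusted p = 5.29e-08).

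The largest falls were in *Ifit3* and *Pydc3*. *Ifit3*, encoding a partner of IFIT1, read 10.01 and 12.5 RPKM in nB and 0.909, 2.53, and 0.681 RPKM in actB with DMSO, a log2 fold change of -2.99 ± 0.50 (adjusted p = 0.000139). *Pydc3* read 21.7 and 22.7 RPKM in nB and 2.07, 9.59, and 2.25 RPKM in actB, a log2 fold change of -2.54 (adjusted p = 0.00955). *Rsad2*, which encodes the antiviral enzyme viperin, fell from 2.59 ± 0.722 to 0.884 ± 0.741 RPKM (log2 fold change -1.48, adjusted p = 0.0282). *Irf7*, the factor that amplifies type I interferon production, read 19.9 and 25.3 RPKM in nB against 6.85, 16.4, and 7.63 RPKM in actB (log2 fold change -1.22, adjusted p = 0.0106). In all 4 genes the actB library nearest to nB was replicate 2. The calls of *Rsad2*, *Irf7*, and *Pydc3* were lost without nB replicate 3 (adjusted p = 0.165, 0.0874, and 0.0533), and the list then had 2 genes called lower. The call of *Rsad2* was also lost without the merged nB library (0.0569) and without actB DMSO replicate 1 (0.0918) or 3 (0.0841). With actB DMSO replicate 1 left out, the list had 4 genes called lower. The shares of all genes without nB replicate 3 or actB DMSO replicate 1 are not given. With replicate 2 left out of every cultured group 16 of 40 genes were lower, where 38.0% of all genes were. Of the list, 35 genes were higher in nB replicate 3 than in the merged nB library, as 54.0% of all genes were. Beside this stand the higher *Csf1r* and *Siglech* of nB replicate 3 given above, and the 7 macrophage and monocyte markers, which summed to 545 RPM in the merged columns and 708 RPM in replicate 3. The part of such cells in the nB levels was not tested.

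In Pb against actB with DMSO, 7 of the 40 genes were higher (27.3% of all genes were) and 15 lower (42.4% of all), with a median log2 fold change of -0.37 against -0.12 over all genes. With the replicate number as a block, 10 were higher (30.1% of all) and 25 lower (46.1% of all). With each library centred on its median, 7 were higher and 12 lower (the share of all genes in this fit is not given). Of the 8 genes of the Ifit and Mx families and other effectors, 5 fell and 2 rose. All 5 of the OAS family had negative fold changes, and 2 of these passed the test.

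*Isg20*, an exonuclease of single-stranded RNA (chr7:86058310-86065248 in mm9), showed the largest rise. It read 21.1, 27.3, and 18.3 RPKM in actB and 86.6, 105, and 81.1 RPKM in Pb, a log2 fold change of 2.03 ± 0.18 (adjusted p = 6.81e-07). *Irf7* rose from the actB values above to 30.6, 41.4, and 31.4 RPKM (log2 fold change 1.82, adjusted p = 0.000393). *Bst2*, which tethers budding virus to the cell surface, rose from 67.0 ± 21.0 to 176 ± 42.7 RPKM (log2 fold change 1.41, adjusted p = 0.00026). *Igtp* rose from 48.0 ± 19.4 to 98.3 ± 25.3 RPKM (log2 fold change 1.07, adjusted p = 0.00315). The other interferon-inducible GTPases, the 3 guanylate-binding proteins and *Irgm1* (log2 fold change -0.50, adjusted p = 0.0429), fell. These groups did not overlap for *Isg20*, *Irf7*, *Bst2*, or *Igtp*.

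*Samd9l*, which encodes an inhibitor of translation (chr6:3322257-3349571 in mm9), was the largest fall. It read 95.5, 109, and 94.0 RPKM in actB and 10.1, 10.3, and 9.50 RPKM in Pb (log2 fold change -3.28 ± 0.22, adjusted p = 3.68e-08). *Gbp2* fell from its actB values to 45.8, 61.6, and 31.1 RPKM (log2 fold change -2.91, adjusted p = 7.03e-06), which was still above nB (log2 fold change 1.61, adjusted p = 0.00161). *Mx2*, encoding a dynamin-like antiviral GTPase, fell from 5.94 ± 3.99 to 0.665 ± 0.352 RPKM (log2 fold change -2.64, adjusted p = 0.000422). *Ifit2* fell from 4.63 ± 1.64 to 0.547 ± 0.0724 RPKM (log2 fold change -2.57, adjusted p = 3.29e-06). *Ifit3* was held by 4, 9, and 3 reads in the Pb libraries with DMSO and by 0, 9, and 0 reads with GSK343, so that its level in Pb lay near or below the value of 3 reads.

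Over the whole course from nB to Pb with DMSO, 16 genes were higher (39.5% of all genes were) and 10 lower (41.1% of all). These comparisons share libraries and are not independent of each other. The largest rise was in *Isg20* (log2 fold change 3.55, adjusted p = 3.99e-09), and all 5 interferon-inducible GTPases were again higher. The largest falls were in *Ifit3* (-4.92), *Pydc3* (-4.16), and *Samd9l* (-3.83). Without the merged nB library, 10 genes were higher. Without nB replicate 3, 6 were lower, and without replicate 2 of every cultured group, 18 were. The shares of all genes called in these fits are not given, so the counts cannot be set against them.

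**Figure D2:**
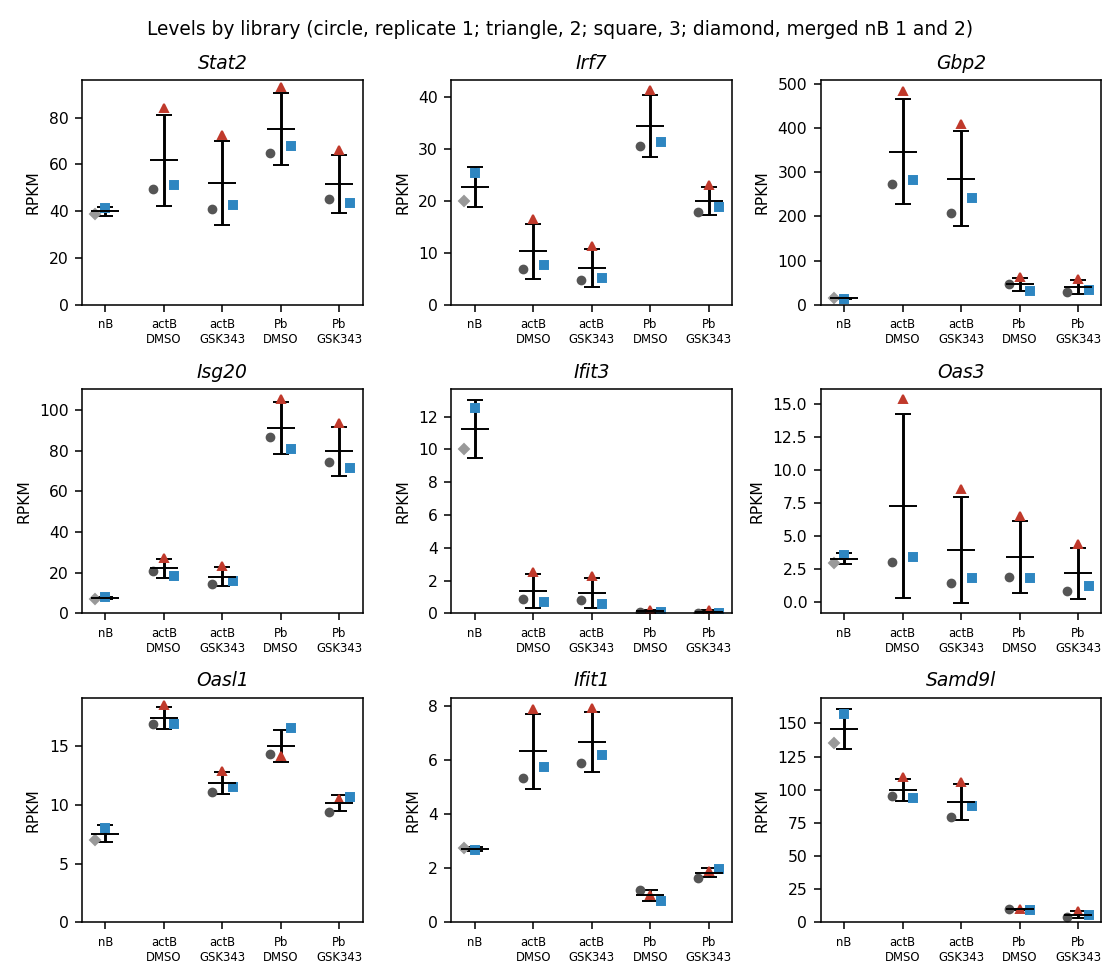
Levels (RPKM, linear axes) of 9 genes in each library of the 5 groups, with the symbol giving the replicate number, the horizontal dash the group mean, and the bars the SD (n = 2 for nB, n = 3 otherwise; in *Oas3* a bar reaches below 0). Replicate 2 (triangle) is the highest library of every cultured group for *Stat2*, *Irf7*, *Gbp2*, *Isg20*, *Ifit3*, *Oas3*, and *Samd9l*, but not for *Oasl1* or *Ifit1* in Pb.

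The regulators of the pathway behaved differently from one another. *Stat2* (chr10:127707629-127729905 in mm9) read 38.6 and 41.2 RPKM in nB, 49.6, 84.2, and 51.1 RPKM in actB with DMSO, and 65.0, 93.0, and 67.8 RPKM in Pb with DMSO. It was higher in Pb than in nB (log2 fold change 0.89, adjusted p = 0.0118, and 0.0699 without the merged nB library), and the step from actB to Pb (0.31) did not pass in the fit over all groups (adjusted p = 0.295) but passed with the replicate block (0.00148) and without replicate 2 of every cultured group (0.40 log2, 7.32e-05). *Irf1*, an early target of IFN-γ, read 60.3 and 52.6 RPKM in nB, 71.6, 92.8, and 73.4 RPKM in actB, and 62.9, 68.6, and 65.1 RPKM in Pb. Its rise from nB to actB was called (log2 fold change 0.48, adjusted p = 0.00372, and 0.0543 without nB replicate 3). From actB to Pb its log2 fold change was -0.26 (adjusted p = 0.0521, 0.0156 with the block, and 0.0321 without replicate 2 of every cultured group). *Irf9*, the DNA-binding partner of STAT2, lay between 17.2 and 24.7 RPKM in nB and in both cultured groups with DMSO and passed none of these tests in the fit over all groups without the block. From actB to Pb its log2 fold change was -0.18 (adjusted p = 0.264, and 0.0208 with the block). Without replicate 2 of every cultured group, *Irf9* was below nB in actB (-0.21 log2, adjusted p = 0.0130) and in Pb (-0.33 log2, 0.000917). The step from actB to Pb did not pass in that fit (adjusted p = 0.128).

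The levels of these genes differed strongly by replicate number. In the cultured libraries, replicate 2 was the highest library of all 4 groups for 36 of the 40 genes (12.5% of all genes tested), whereas replicate 1 was so for 0 (4.80% of all) and replicate 3 for 0 (2.12% of all). A moderated F test of the replicate number over the 12 cultured libraries, with the group in the model, called 35 of 40 genes (26.2% of all genes), and in all 35 the highest estimate was that of replicate 2. edgeR on the recovered reads called 39, but the share of all genes that it called is not given. Taken by group, replicate 2 was highest for 40 of 40 genes in actB with DMSO and in actB with GSK343, and for 37 of 40 in each Pb group. The median of replicate 2 minus the mean of replicates 1 and 3 was 0.85 and 0.78 log2 in actB with DMSO and with GSK343, and 0.51 and 0.67 log2 in Pb. Over all genes these medians were -0.0011, 0.00055, -0.018, and -0.019 log2.

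*Ifi44* (chr3:151393886-151412911 in mm9), a cytoplasmic interferon-induced protein gene, had the largest range. It read 0.334, 4.43, and 0.298 RPKM in actB with DMSO and 0.144, 1.46, and 0.190 RPKM with GSK343. In Pb it read 1.20, 5.92, and 0.892 RPKM with DMSO and 0.588, 2.53, and 0.407 RPKM with GSK343. Replicate 2 was far above both others in every group, with an estimate of 2.24 ± 0.19 (SE) log2 over replicate 1 (adjusted p = 0.000279), while replicate 3 minus replicate 1 was -0.16. *Oas3* (chr5:121203107-121227670 in mm9) read 3.03, 15.4, and 3.43 RPKM in actB with DMSO and 1.91, 6.55, and 1.79 RPKM in Pb with DMSO. Its estimate for replicate 2 over replicate 1 was 2.10 ± 0.12 log2 (adjusted p = 5.29e-05).

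*Oas1a* read 5.73, 19.3, and 5.30 RPKM in actB with DMSO and 1.28, 4.79, and 0.942 RPKM in Pb with DMSO, and replicate 2 lay 1.71 log2 above replicate 1. *Pydc3* (1.82 log2), *Oas2* (1.77 log2), and *Rtp4*, a chaperone of receptors (1.66 log2), followed. By role, the median difference of replicate 2 from replicate 1 was 1.71 log2 for the OAS family, 1.11 for *Isg15* and its protease *Usp18*, 0.80 for the Ifit, Mx, and other effectors, 0.60 for the nucleic acid sensors, 0.57 for the interferon-inducible GTPases, and 0.50 for the transcription factors. The genes that the F test did not call were *Samd9l*, *Ifit1*, *Ifih1*, *Irf1*, and *Oasl1* (adjusted p = 0.0966, 0.231, 0.0956, 0.0869, and 0.247). Among genes with a promoter window, the median was 0.74 log2 for the 15 with an ISRE core and 0.52 log2 for the 16 without, and the ranges overlapped (0.24 to 2.10 and 0.12 to 2.24).

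**Figure D3:**
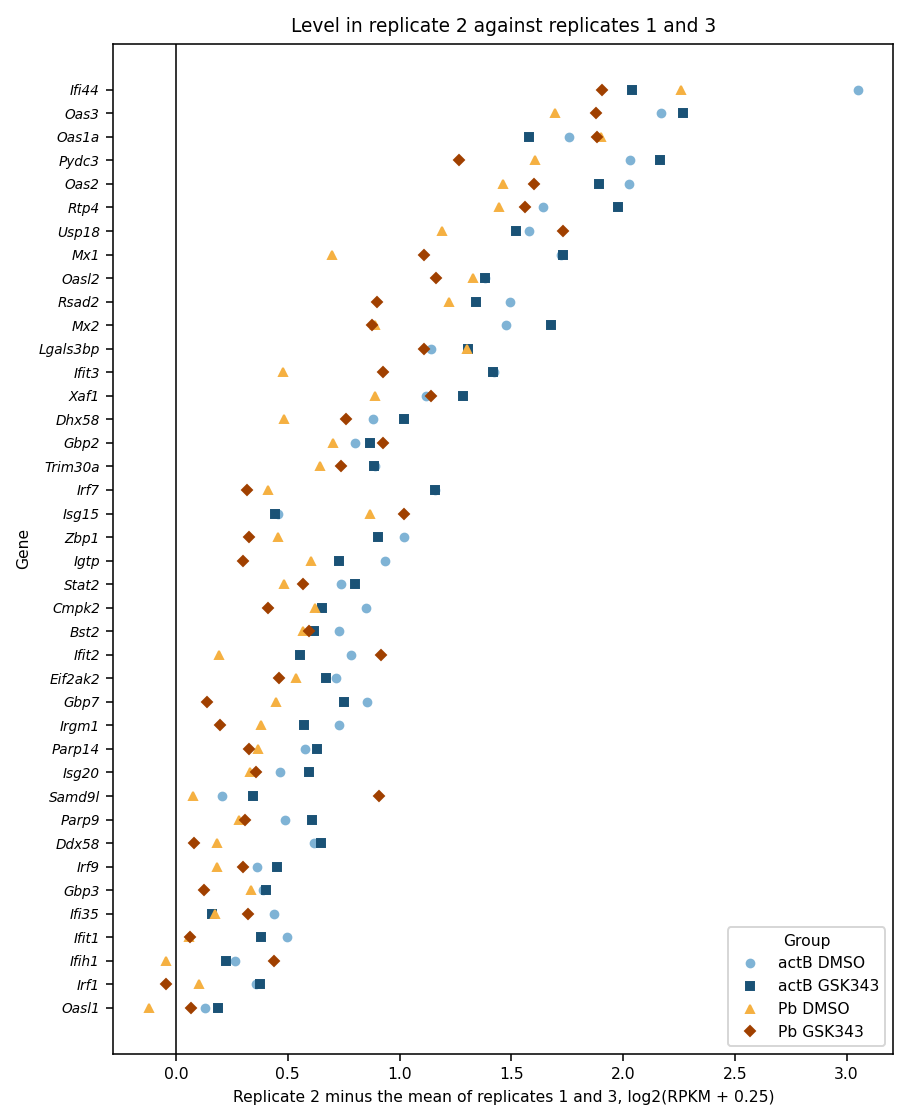
Replicate 2 minus the mean of replicates 1 and 3 on the log2(RPKM + 0.25) scale (x axis) for the 40 genes (y axis, ordered by their range between replicate numbers), with 1 symbol per cultured group. Nearly all points lie right of 0, up to 3.05 for *Ifi44* in actB with DMSO, and those left of 0 belong to *Ifih1*, *Irf1*, and *Oasl1* in Pb.

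Interferon-stimulated genes outside the list were also highest in replicate 2. Of 54 further interferon-stimulated genes, 45 were called by the F test (26.2% of all genes were), all with replicate 2 highest. In all 4 groups, 48 were highest in replicate 2 (12.5% of all genes were). These genes were also listed with earlier results of these data known, so their counts are not an independent test. *Socs1*, a feedback inhibitor of JAK kinases, was 0.96 log2 higher in replicate 2 (adjusted p = 8.1e-05). Transcripts of the interferons themselves were scarce. Of 12 ligand genes, 7 had no read in any cultured library, 4 had at most 1 to 4 reads in a library (*Ifnb1* a single read in actB GSK343 replicate 2), and *Ifng* had at most 9 reads. *Ifng* was the 1 ligand gene tested and was not called (adjusted p = 0.851), and at these read numbers a difference between replicates was not detectable for the ligands. The receptor genes *Ifnar1* and *Ifngr1* were not called (adjusted p = 0.0695 and 0.245), and *Ifnar2* and *Ifngr2* were 0.16 and 0.19 log2 higher in replicate 2 (adjusted p = 0.0293 and 0.0443).

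Markers of other cells were compared along with this. The 7 macrophage and monocyte markers summed to 401 RPM in replicate 2 of actB with DMSO, against 250 and 275 RPM in replicates 1 and 3, and to 360 against 325 and 303 RPM with GSK343. In Pb the sums were 40.4 against 30.5 and 24.8 RPM with DMSO, and 36.4 against 19.7 and 21.5 RPM with GSK343. Of the 7, 1 passed the F test, *Mpeg1*, with 48.1, 84.9, and 54.1 RPKM in actB with DMSO. By estimate, replicate 2 was below replicate 1 for *Itgam* (-0.38 log2) and *Adgre1* (-0.05 log2), and above it for the others (0.015 to 0.76 log2). The defining *Csf1r* and *Lyz2* were at most 0.0484 and 1.13 RPKM in any cultured library, against at least 9.16 and 152 RPKM in nB. *Mpeg1* and *Itgam* lay above nB in some cultured libraries, with ranges of 2.34 to 84.9 and 0.175 to 12.8 RPKM. In nB they were at 52.6 to 65.2 and 3.67 to 4.38 RPKM. *Siglech* and *Cd3e* were at 0 in some cultured libraries and at most 0.0547 and 0.0286 RPKM. Of the 6 plasmacytoid dendritic cell markers, 4 passed the F test. *Cox6a2*, *Il3ra*, and *Tcf4* were higher in replicate 2 than in replicate 1 (0.67, 0.43, and 0.12 log2, adjusted p = 0.0359, 0.0256, and 0.0407), and *Ccr9* was lower (-0.54 log2, adjusted p = 0.00698). The sum of this list, most of it *Tcf4*, was highest in replicate 2 in all 4 cultured groups and ranged from 281 to 369 RPM over the cultured libraries. The natural killer cell marker *Nkg7* also passed (adjusted p = 0.0108), with 0.27 log2 for replicate 2 and -0.53 log2 for replicate 3, each over replicate 1. The B cell receptor components *Cd79a* and *Cd79b* passed with replicate 2 highest (0.16 and 0.13 log2 over replicate 1, adjusted p = 0.0216 and 0.0244). The plasmablast markers *Prdm1* and *Xbp1* passed with replicate 3 highest (0.14 and 0.15 log2 over replicate 1, adjusted p = 0.0439 and 0.0206). Of the 6 T cell markers, 0 passed. The part of other cells in the replicate difference was not tested. The number 2 library of nB holds the same reads as number 1, so whether replicate 2 stood apart before culture could not be compared.

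GSK343 was then compared with DMSO in each cell type. Without regard to replicate number, 0 of the 40 genes were higher (8.20% of all genes were) and 1 was lower (2.16% of all) in actB. No gene was called higher by edgeR or DESeq2 either, and at an unadjusted p under 0.05 only the gene called lower remained. In Pb, 1 was higher (7.90% of all) and 2 were lower (5.0% of all). The fold changes were nonetheless mostly negative, in 34 of 40 genes in actB (median -0.29 log2, against 0.028 over all genes) and in 32 of 40 in Pb (-0.30 against 0.0031).

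No source states that same-numbered libraries are paired. Their deviations from the group mean correlated (r from 0.158 to 0.713), with some overlap with libraries of different numbers (-0.603 to 0.370). On this basis the replicate number was also fitted as a block. With the block, 19 genes were lower with GSK343 in actB (6.24% of all genes were) and 0 higher (14.7% of all), and in Pb 21 were lower (10.7% of all) and 2 higher (13.6% of all). Without any replicate 2 library, and with no block, 17 were lower in actB (4.97% of all) and 19 in Pb (7.52% of all), and 15 and 18 of these were among those lower with the block. GSK343 was below DMSO in all 3 same-numbered pairs for 31 of 40 genes in actB (23.0% of all genes) and for 24 of 40 in Pb (26.6% of all). Lower with the block in both cell types were 16 genes, which are 84.2% of the 19 in actB and 76.2% of the 21 in Pb. Over all genes, 393 were lower in both, 55.7% of those in actB and 32.6% of those in Pb.

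*Rtp4* (chr16:23610005-23614308 in mm9) showed the most negative mean difference on the log2(RPKM + 0.25) scale in both cell types, close to that of *Pydc3* in actB. In edgeR with the block, *Ifi44* (-1.44) and *Pydc3* (-1.08) lay below *Rtp4* (-1.01) in actB, and *Pydc3* (-1.32) below *Rtp4* (-1.29) in Pb. It read 3.41, 10.8, and 3.17 RPKM with DMSO and 1.33, 6.37, and 1.54 RPKM with GSK343 in actB, and 2.12, 6.16, and 2.08 RPKM with DMSO and 0.780, 2.80, and 0.786 RPKM with GSK343 in Pb. The ranges of the treatments overlapped in actB and in Pb, and GSK343 was lower within each number. The log2 fold changes were -0.96 in actB (adjusted p = 0.406, and 0.00104 with the block) and -1.15 in Pb (0.288, and 0.000336 with the block). *Pydc3* and *Oas3* followed in actB with -0.96 and -0.89 (adjusted p = 0.00611 and 0.00289 with the block) and *Oas2* in Pb with -0.99 (0.399, and 0.000837 with the block). With GSK343, *Pydc3* read 0.863, 5.15, and 1.05 RPKM in actB. *Oas3* read 1.41, 8.57, and 1.77 RPKM in actB and 0.848, 4.41, and 1.21 RPKM in Pb.

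*Stat2* with GSK343 read 40.98, 72.7, and 42.4 RPKM in actB and 45.2, 66.0, and 43.6 RPKM in Pb, each below the DMSO library of its number. Its log2 fold change was -0.25 in actB (adjusted p = 0.62, and 0.0241 with the block) and -0.55 in Pb (0.193, and 0.000696 with the block). *Irf7* read 4.73, 11.3, and 5.13 RPKM in actB with GSK343 and 17.9, 23.0, and 18.9 RPKM in Pb, where its groups did not overlap and the log2 fold change was -0.78 (adjusted p = 0.163, and 0.0149 with the block). In actB it was -0.53 (0.376, and 0.0667 with the block), and it passed in edgeR with the block (adjusted p = 0.0164) and without replicate 2 of every cultured group (0.0121). The value of *Irf9* was -0.12 in actB (adjusted p = 0.189 with the block, and 0.0323 in edgeR with the block) and -0.27 in Pb (adjusted p = 0.243, and 0.0125 with the block). *Irf1* differed from the other factors, with 0.02 in actB (-0.015 with each library centred on its median) and 0.20 in Pb, and limma did not call it with or without the block (in Pb, adjusted p = 0.281 and 0.108). With edgeR and the block the Pb value was 0.20 (adjusted p = 0.0491), and with the Pb groups fitted alone the adjusted p was 0.0339. In Pb *Irf1* read 75.4, 73.9, and 77.1 RPKM with GSK343, all above the DMSO libraries.

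*Oasl1* (chr5:115373249-115387924 in mm9), which encodes an OAS-like protein that restrains translation of *Irf7*, was the gene called in both cell types with or without the block. It read 16.9, 18.5, and 16.9 RPKM with DMSO and 11.1, 12.9, and 11.5 RPKM with GSK343 in actB. In Pb it read 14.3, 14.1, and 16.5 RPKM with DMSO and 9.39, 10.5, and 10.6 RPKM with GSK343. The treatments did not overlap in either cell type, and the log2 fold change was -0.55 ± 0.08 (SE) in each (adjusted p = 0.00216 in actB and 0.00181 in Pb). It was also among the genes with the least difference between replicate numbers. Its exons overlap a transcript on the other strand in the mm9 annotation (GENCODE vM1), and whether counting used strand is not stated.

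The other calls without the block were in Pb. *Samd9l* read 3.72, 8.63, and 5.41 RPKM with GSK343 against 9.50 to 10.3 RPKM with DMSO (log2 fold change -0.81, adjusted p = 0.0283, and 0.00981 with the block). Without replicate 2 of every cultured group its log2 fold change was -1.09 (adjusted p = 0.00132 in limma). Its call without the block was lost when the Pb groups were fitted alone (adjusted p = 0.111). It also did not pass with any of the Pb DMSO libraries left out (0.0649 to 0.0808) or without Pb GSK343 replicate 3 (0.0906). Leaving out Pb GSK343 replicate 1 gave a log2 fold change of -0.53 (adjusted p = 0.0857). *Ifit1* (chr19:34715361-34724499 in mm9) moved the other way, from 1.19, 1.02, and 0.784 RPKM with DMSO to 1.64, 1.89, and 1.97 RPKM with GSK343 (log2 fold change 0.75 ± 0.16, adjusted p = 0.0105). In actB it read 5.32, 7.89, and 5.75 RPKM with DMSO and 5.86, 7.92, and 6.19 RPKM with GSK343 (log2 fold change 0.08, adjusted p = 0.822). *Igtp* was higher in Pb with the block (log2 fold change 0.45, adjusted p = 0.311 without and 0.0197 with it).

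By role, the block called 4 of 5 OAS family genes lower in actB and all 5 in Pb, and *Isg15* and *Usp18* were both lower in Pb (log2 fold changes -0.76 and -0.70). *Isg15* read 25.8, 34.9, and 25.4 RPKM with GSK343 in actB and 26.3, 56.4, and 29.2 RPKM in Pb, each below the DMSO library of its number (adjusted p with the block 0.0336 and 0.00375). Among the interferon-inducible GTPases the block in limma called 0 of 5 lower in either cell type. In actB, edgeR with the block called *Gbp2* and *Gbp3* lower (-0.33 and -0.23 log2, adjusted p = 0.0295 and 0.0114). In Pb, the same edgeR fit called *Gbp7* and *Igtp* higher (0.33 and 0.45 log2, adjusted p = 0.0417 and 0.0023). The limma values lay in the range of -0.29 to 0.20 in actB and -0.25 to 0.45 in Pb. Of the remaining genes, the block called *Trim30a*, *Dhx58*, *Eif2ak2*, *Ifi44*, *Parp9*, *Parp14*, *Xaf1*, *Bst2*, and *Pydc3* lower in both cell types. *Dhx58*, which encodes the RNA sensor LGP2, changed by -0.55 log2 in actB and -0.72 log2 in Pb (adjusted p with the block 0.00748 and 0.00188). *Eif2ak2*, encoding the RNA-activated kinase PKR, changed by -0.34 and -0.51 log2 (0.00397 and 0.000489).

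**Figure D4:**
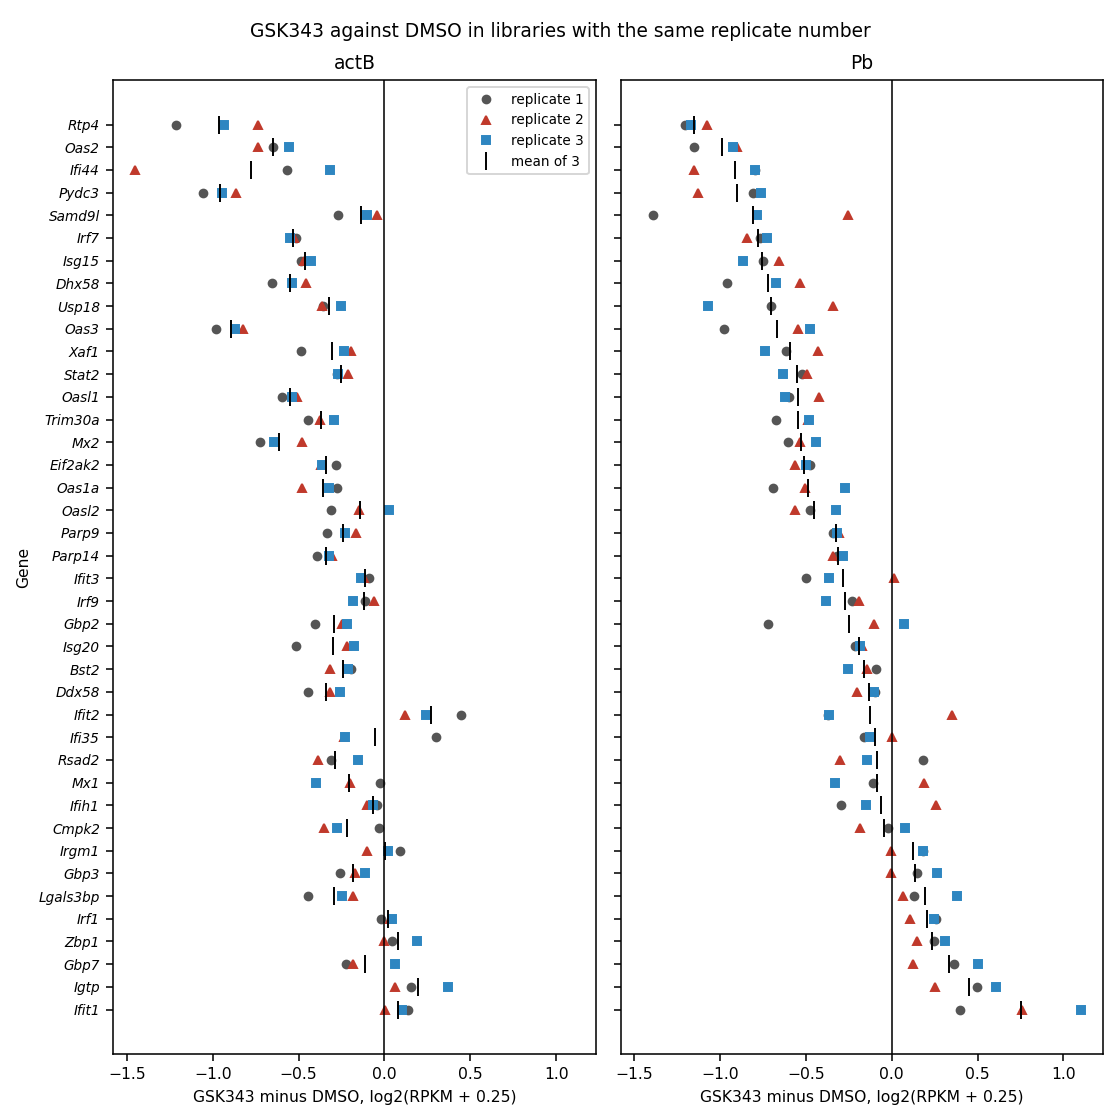
GSK343 minus DMSO in libraries with the same replicate number, on the log2(RPKM + 0.25) scale (x axis), for the 40 genes (y axis, ordered by the mean in Pb) in actB (left) and Pb (right), with 1 symbol per replicate number and a bar for the mean of 3. Most points lie left of 0 in both cell types, from *Rtp4* at the top (means -0.96 and -1.15), while *Ifit1* and *Igtp* at the bottom lie right of 0 in Pb.

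The effect of GSK343 in Pb was not shown by limma to differ from that in actB. For the difference of the 2 effects, limma called 0 of 40 genes (0.248% of all genes), with 2 at an unadjusted p under 0.05, and edgeR and DESeq2 without the block called 0. edgeR with the replicate block called 3 (2.63% of all genes), *Ifit1*, *Lgals3bp*, and *Gbp3* (adjusted p = 0.0352, 0.0101, and 0.0388), all with the more positive value in Pb. For *Ifit1* the limma estimate was 0.67 ± 0.23 log2 (adjusted p = 0.338). For *Oasl1* it was 0.00 ± 0.12 log2.

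The rest of the pathway was compared in lists of 106 genes, of which 91 were tested. Without the block, 8.20% of all genes were higher and 2.16% lower with GSK343 in actB. In Pb, 7.90% of all genes were higher and 5.0% lower. The counts without the block given below for each list are to be read against these shares. Of the 9 receptors and kinases tested, 2 were higher in actB without the block, *Jak1* (0.16 log2, adjusted p = 0.0449) and *Jak2* (0.35 log2, adjusted p = 0.0392). In Pb, 2 were higher and 3 lower, among them *Ifnar1* (21.9, 23.7, and 21.0 RPKM with DMSO and 18.1, 17.9, and 17.6 RPKM with GSK343; -0.31 log2, adjusted p = 0.0217) and *Ifngr2* (-0.36 log2, adjusted p = 0.0232). *Ifnar2* and *Ifngr1* changed by -0.17 and 0.17 log2 in Pb (adjusted p = 0.184 and 0.241), and *Ifnar2* passed with the block (0.0278).

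Of 13 sensors and adaptors, 1 was lower in actB and 2 in Pb. *Mavs*, the mitochondrial adaptor of the RNA sensors, was lower in both, by -0.29 log2 in actB (adjusted p = 0.0038) and -0.20 log2 in Pb (adjusted p = 0.022). Of 9 inhibitors, 2 were higher in actB, *Socs3* (44.5, 67.1, and 48.2 RPKM with DMSO and 88.2, 84.3, and 76.3 RPKM with GSK343; 0.66 log2, adjusted p = 0.0294) and *Pias3* (0.31 log2, adjusted p = 0.005). Of 5 other interferon regulatory factors, *Irf4* and *Irf5* were lower in Pb (-0.25 and -0.26 log2, adjusted p = 0.0225 and 0.0147). Of the 54 further interferon-stimulated genes, 1 was lower in actB (2.16% of all genes were) and 0 higher (8.20% of all). In Pb, 2 of them rose (7.90% of all) and 3 fell (5.0% of all). The block called 1 higher and 14 lower in actB (14.7% and 6.24% of all genes). In Pb it called 6 higher and 13 lower (13.6% and 10.7% of all).

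From nB to actB, 8 of the 9 receptors and kinases fell, where 36.3% of all genes tested did. *Ifngr1* read 69.4 and 69.2 RPKM in nB, 20.2, 24.0, and 21.8 RPKM in actB, and 9.36, 8.62, and 8.20 RPKM in Pb with DMSO. The IFN-γ receptor subunits *Ifngr1* and *Ifngr2* fell again from actB to Pb (-1.31 and -1.13 log2), whereas the type I receptor subunits *Ifnar1* and *Ifnar2* rose (0.52 and 0.84 log2, adjusted p = 6.5e-05 and 8.49e-07).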

How the data were processed

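RNA-seq was compared in 5 groups. The authors made stranded poly(A) libraries from 500 ng of RNA each, mapped the paired reads of 50 bp to mm9 with TopHat2, and counted over exons of Entrez genes. The deposited values are RPM per gene in a table whose name says RPKM. Each column sums to 1000000, and 100% of values are whole reads within 0.0006 RPM, so reads were recovered for edgeR and DESeq2. RPKM was computed as RPM per kilobase of the deposited length. Genes with no symbol (92 genes) held at most 0.0905% of reads and were left out.

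The 14 libraries (nB replicates 1 and 2 merged) entered 1 linear model per gene in limma (version 3.58.1, R 4.3.3, moderated with a mean trend) on log2(RPKM + 0.25), with 9 residual degrees of freedom. Two-sided p-values were adjusted after Benjamini and Hochberg across all 11299 genes in the test. Scripts were tested on simulated data. Fold changes are on the log2(value + pseudocount) scale, which understates those of low genes. Deviations from the group mean correlated between cultured libraries of the same number (r from 0.158 to 0.502, 0.435 to 0.713, and 0.219 to 0.356 for numbers 1 to 3, with 6 pairs each), and r was -0.603 to 0.370 between different numbers (36 pairs). The replicate number was therefore also fitted as a block on the 12 cultured libraries. Alternatives were edgeR 4.0.16, DESeq2 1.42.0, pseudocounts of 1 and 0.05, other filters and scalings, the compared groups alone, and libraries left out. The smallest exact two-sided permutation p of 3 against 3 libraries is 0.1.

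Per-library values are given for the transcription factors, the 4 largest called rises and falls of each comparison, the genes called for GSK343, and the 6 largest ranges between replicate numbers. Others were named after their values were seen. The 40 genes and the lists were chosen with earlier results of these data known. Near-identical copies (Ifit, Mx, Oas, Gbp, and Trim30 genes) may share reads. Coordinates of genes are mm9 (GENCODE vM1), and promoter sequences are from RefSeq in GRCm38.p6. Exons of *Irf1*, *Irf7*, *Oasl1*, *Dhx58*, *Ifi35*, *Parp9*, and *Eif2ak2* overlap another gene on the other strand, and those of *Irf9* a gene on the same strand.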

Additional observations from a re-analysis of the deposited data

Results flagged for a closer look

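*Lgals3bp*, which encodes a secreted glycoprotein, was lower with GSK343 in all 3 same-numbered pairs of actB and higher in all 3 pairs of Pb. The difference of the effects (Pb minus actB) was 0.485 on the log2 scale, with an adjusted p of 0.963 in limma, 0.0542 with the replicate block, and 0.0101 in edgeR with the block. Without replicate 2 of every cultured group it was 0.60 (adjusted p = 0.0421 in limma). In Pb the labels also name another cytokine for the GSK343 libraries.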

How the results depend on the processing

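The counts for GSK343 depended most on how replicate 2 was handled. With the replicate block, 19 genes were called in actB (19 lower), 23 in Pb (21 lower, 2 higher), and 35 from actB to Pb (25 lower). With edgeR and the block, these were 26 (26 lower), 27 (23 lower, 4 higher), and 23 lower from actB to Pb (of all genes, this fit called 13.8% lower in actB and 13.2% in Pb with GSK343, and 39.7% from actB to Pb), and the difference of the effects had 3 genes, all 3 higher in Pb. Without replicate 2 of every cultured group, 18 were called in actB (17 lower, 1 higher), 23 in Pb (19 lower, 4 higher), and 1 (higher) for the difference, with 16 lower from nB to actB and 18 lower from nB to Pb. The cause of the change from the fit without a block was not tested beyond these fits. The block changed no other count by over 1.5 times. With no filter 1 gene was lower in Pb, and with the Pb groups alone 2 were higher.

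With single libraries left out, the counts ranged from 2 to 7 lower from nB to actB, 10 to 16 higher and 6 to 13 lower from nB to Pb (17 to 25 in all), 1 to 3 lower with GSK343 in Pb (1 without any one Pb library other than GSK343 replicate 2), and 1 to 2 lower or called in actB (2 without actB GSK343 replicate 2). The test of the replicate number called 31 to 39 genes over all alternatives. The shares of all genes called are not given for the fits with single libraries left out or for these alternatives. *Irf1* with GSK343 in actB was near 0 and turned negative with DESeq2 (-0.016), edgeR (-0.016 with RLE, -0.014 with TMM, -0.027 with the block), and median scaling (-0.015), and with single libraries left out reached -0.106, -0.050, and -0.032. *Irf9* in actB ranged from -0.27 to 0.0012 (the latter without actB DMSO replicate 2). The difference of the effects ranged from -0.63 to 0.14 for *Irf7* and from -0.27 to 0.00015 for *Irf9*, with the upper values without actB GSK343 replicate 2. A lone merged library was assumed to vary like the other groups.

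Depth limits *Ifit3* in Pb and the interferon ligands, which lay at or near the value of 3 reads. Groups of 3 libraries, and 2 for nB, limit the rest.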
